A study of Mus musculus with 4 samples.

Results

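The 40 genes described here encode the machinery of cell division: cyclins and their kinase, the proteins that license and unwind replication origins, enzymes that make DNA and its precursors, the spindle checkpoint, mitotic kinases, centromere proteins, spindle motors and the proliferation antigen Ki-67. They were chosen by name for these roles, with earlier results of these data known, and make up 40 of the 34836 named genes on the array. Their levels were measured in salivary glands (SGs) of female mice aged 10 weeks on a C57/BL6 background. One group was Myd88-/- (labelled Myd88-KO, 2 arrays), lacking the adaptor through which most Toll-like receptors and the interleukin-1 receptor family signal, and the other was Myd88+/+ (labelled Wildtype, 2 arrays). The sample labels give the tissue as submandibular glands (SMGs) together with sublingual glands (SLGs), whereas the study's text names whole SMGs, and which of these holds was not settled here. The deletion was constitutive and therefore present in every cell type of the gland. The -/- and +/+ animals were bred from heterozygous parents of a line backcrossed to this strain, and lymph nodes were dissected away from the glands. The study's text counts more mice per genotype than there are arrays here, and the sources do not state whether an array held RNA of 1 animal or of a pool, so the tests below measure only the spread between arrays, which may be technical.

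In a dividing cell, origins are licensed in G1 when Cdc6 and Cdt1 load the ring of Mcm2 to Mcm7 proteins onto DNA. Cyclin E and cyclin A with their kinases then start and carry S phase, and cyclin B with Cdk1 drives entry into mitosis, where the spindle checkpoint holds back the anaphase-promoting complex (APC/C) until every chromosome is attached. Transcription of the S phase genes is controlled largely by E2F factors, and that of the G2 and mitosis genes by the DREAM and MuvB complexes at an element called CHR, often beside CCAAT boxes bound by NF-Y. In adult SGs most acinar and duct cells divide rarely, and lymphocytes and other cells of the connective tissue can divide as well.

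Promoters of members from both classes are shown because the members differ in which of these elements they hold. They were read from RefSeq (GRCm38.p6) as the 180 bases before the start site, 5′ to 3′ on the gene's own strand, and the genes were picked after their values were seen. Capitals mark 3 elements found on either strand: the E2F words TTTCCCGC, TTTCGCGC, TTTGCCGC and TTTGGCGC, the CHR word TTTGAA and the word CCAAT, which reads ATTGG, or TTCAAA for CHR, where it lies on the opposite strand. Mcm5 (chr8:75109329-75109508 on the plus strand) and Mcm6 (chr1:128359706-128359885 on the minus strand) stand for the licensing genes with E2F words, Cdk1 (chr10:69352913-69353092 on the minus strand) holds all 3 elements, Mki67 (chr7:135716380-135716559 on the minus strand) and Ube2c (chr2:164769749-164769928 on the plus strand) hold CHR and CCAAT words, and Tyms (chr5:30073626-30073805 on the minus strand) holds none and was the member that stood higher in Myd88-/- SGs. In Mcm5 and in the upstream match of Mcm6, 2 E2F words on opposite strands overlap and are capitalised as 1 run.
Mcm5: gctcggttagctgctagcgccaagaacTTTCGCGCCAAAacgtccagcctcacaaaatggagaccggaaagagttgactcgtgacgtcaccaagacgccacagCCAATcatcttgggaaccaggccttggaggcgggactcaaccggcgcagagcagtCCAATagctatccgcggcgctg
Mcm6: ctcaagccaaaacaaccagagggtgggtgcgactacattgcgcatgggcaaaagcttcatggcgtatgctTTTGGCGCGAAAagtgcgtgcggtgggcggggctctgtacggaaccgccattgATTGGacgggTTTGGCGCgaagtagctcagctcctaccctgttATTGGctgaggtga
Cdk1: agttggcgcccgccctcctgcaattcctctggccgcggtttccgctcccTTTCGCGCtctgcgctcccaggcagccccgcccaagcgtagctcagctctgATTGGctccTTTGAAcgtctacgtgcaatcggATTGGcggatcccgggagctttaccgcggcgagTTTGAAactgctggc
Mki67: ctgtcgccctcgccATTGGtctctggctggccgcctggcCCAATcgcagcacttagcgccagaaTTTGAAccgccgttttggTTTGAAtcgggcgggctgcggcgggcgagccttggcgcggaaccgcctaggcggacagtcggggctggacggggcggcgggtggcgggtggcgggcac
Ube2c: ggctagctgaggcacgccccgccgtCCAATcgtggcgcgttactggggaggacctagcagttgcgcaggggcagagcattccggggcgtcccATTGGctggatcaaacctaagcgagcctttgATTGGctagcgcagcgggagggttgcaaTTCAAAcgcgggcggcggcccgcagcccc
Tyms: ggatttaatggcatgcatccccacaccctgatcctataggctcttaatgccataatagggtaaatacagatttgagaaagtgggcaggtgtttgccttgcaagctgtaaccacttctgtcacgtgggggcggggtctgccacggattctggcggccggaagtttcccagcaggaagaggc

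Promoter windows of 300 bases, 250 before and 50 after the start, were found for 34 of the 40 members (36 windows). E2F words lay in 7 of the 36 windows (19.4%), compared to 2.26% of all 32851 promoter windows. CHR words lay in 18 of the 36 (50%, compared to 17.9% of all windows), and CCAAT in 29 (80.6%, compared to 37.4%). The 7 genes with E2F words were Cdc6, Cdt1, Mcm3, Mcm5, Mcm6, Mcm7 and Cdk1, so that 6 of the 8 licensing and helicase genes with a window held one, whereas the mitotic genes mostly held CHR and CCAAT words. None of the 3 elements was found for 5 genes: Tyms, Ccne1, Birc5, Mad2l1 and Nusap1. These matches are letters within a window, not measured binding.

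Scaled signals are given as log2 of the processed intensity minus each array's 75th percentile, so that 0 is the level of that percentile, and a difference is the Myd88-/- mean minus the Myd88+/+ mean on this log2 scale. Values are always given in the order Myd88-/- replicates 1 and 2, then Myd88+/+ replicates 1 and 2. Of the 55681 probes, 52.2%, 68.4%, 74.2% and 55.1% stood well above background on the arrays in this order, and 0 spots were saturated. The lower shares were thus in Myd88-/- replicate 1 and Myd88+/+ replicate 2, so they did not follow genotype. The number of arrays limits the precision. The Myd88 probe itself read 1.51, 1.41, 1.15 and 1.07, a difference of 0.35 (SE 0.11, limma adjusted p = 0.264). It was thus no lower in the arrays labelled Myd88-KO and, since where it lies relative to the deleted part is not given in the sources used here, it does not check the labels. Gland genes were present on every array, with Aqp5, the acinar water channel, at 7.11, 6.90, 6.81 and 6.86.

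Cell cycle and mitosis genes stood lower in Myd88-/- SGs compared to Myd88+/+ SGs as a group, by a median of 1.48-fold over all 40 members, but no single gene passed the adjusted threshold. The median difference of the 40 members was -0.56, compared to 0.12 for all named genes. Among the 36 members that could be tested it was -0.64, compared to 0.062 for all 22312 genes tested. The median deviation of the members from their own mean over the arrays was -0.31 and -0.22 in the Myd88-/- arrays and 0.39 and 0.22 in the Myd88+/+ arrays. The arrays of each genotype thus sat together on this measure. Because these are bulk samples, fewer dividing cells and less RNA per cell cannot be told apart.

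Of the 40 members, 33 had both Myd88-/- arrays below both Myd88+/+ arrays, where 13.1% of all named genes did, and 3 had both above (Tyms, Ccne2 and Aurkb), where 30.3% of all named genes did. Ccne2 and Aurkb stood well above background on no array, and both shares also count genes below background. The faintest probe well above background read -3.97 and -4.03 in the Myd88-/- arrays and -4.71 and -4.33 in the Myd88+/+ arrays. The part of this in the 30.3% was not tested. Of the 36 tested members, 25 had an unadjusted p under 0.05 with the lower level in Myd88-/- SGs, compared to 6.83% of all genes tested, and 1, Tyms, with the higher level, compared to 9.82%. No member passed 0.05 after Benjamini-Hochberg adjustment in limma, and neither did any other gene (0% of genes tested), with adjusted p between 0.194 and 0.937 for the members. The fitted difference exceeded 2-fold downwards in 9 of the 36, compared to 3.42% of genes tested, and the mean was lower in 34 of the 36, compared to 40.4% of genes tested. Cdc6, Kif23 and Kif11 were among these 9 and were tested only through the Myd88+/+ arrays. All 33 members separated in the lower direction were among the 36 tested, where 18.7% of genes tested were separated this way. The methods' t-test also left 0 members after adjustment, whereas limma with trended and robust moderation passed 8 members, and with median scaling only 9 members, not 25, had a lower level at an unadjusted p under 0.05. That count was 15 without Myd88-/- replicate 1 and 16 without Myd88+/+ replicate 1.

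Passing the filter on background could itself favour a difference, since 4 tested members, Cdc6, Bub1, Kif23 and Kif11, stood well above background on both Myd88+/+ arrays but on no Myd88-/- array, or on 1 for Kif11. Among the 32 members well above background on all 4 arrays, 30 were lower in Myd88-/- SGs and 29 had separated arrays, compared to 17.9% of the genes with the same property. Their median difference was -0.56, compared to 0.072 for the 20489 genes with that property. When only probes well above background on all 4 arrays were fitted, 24 of the 32 members were lower at an unadjusted p under 0.05. Of the 20515 genes in that fit, 1371 were. The remaining 4 members, Ccne2, Ttk, Aurkb and Cenpf, stood well above background on no array, with scaled signals between -7.05 and -3.76, and are not interpreted. Their absence from the test does not say that the mRNAs were absent from the gland.

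**Figure D1:**
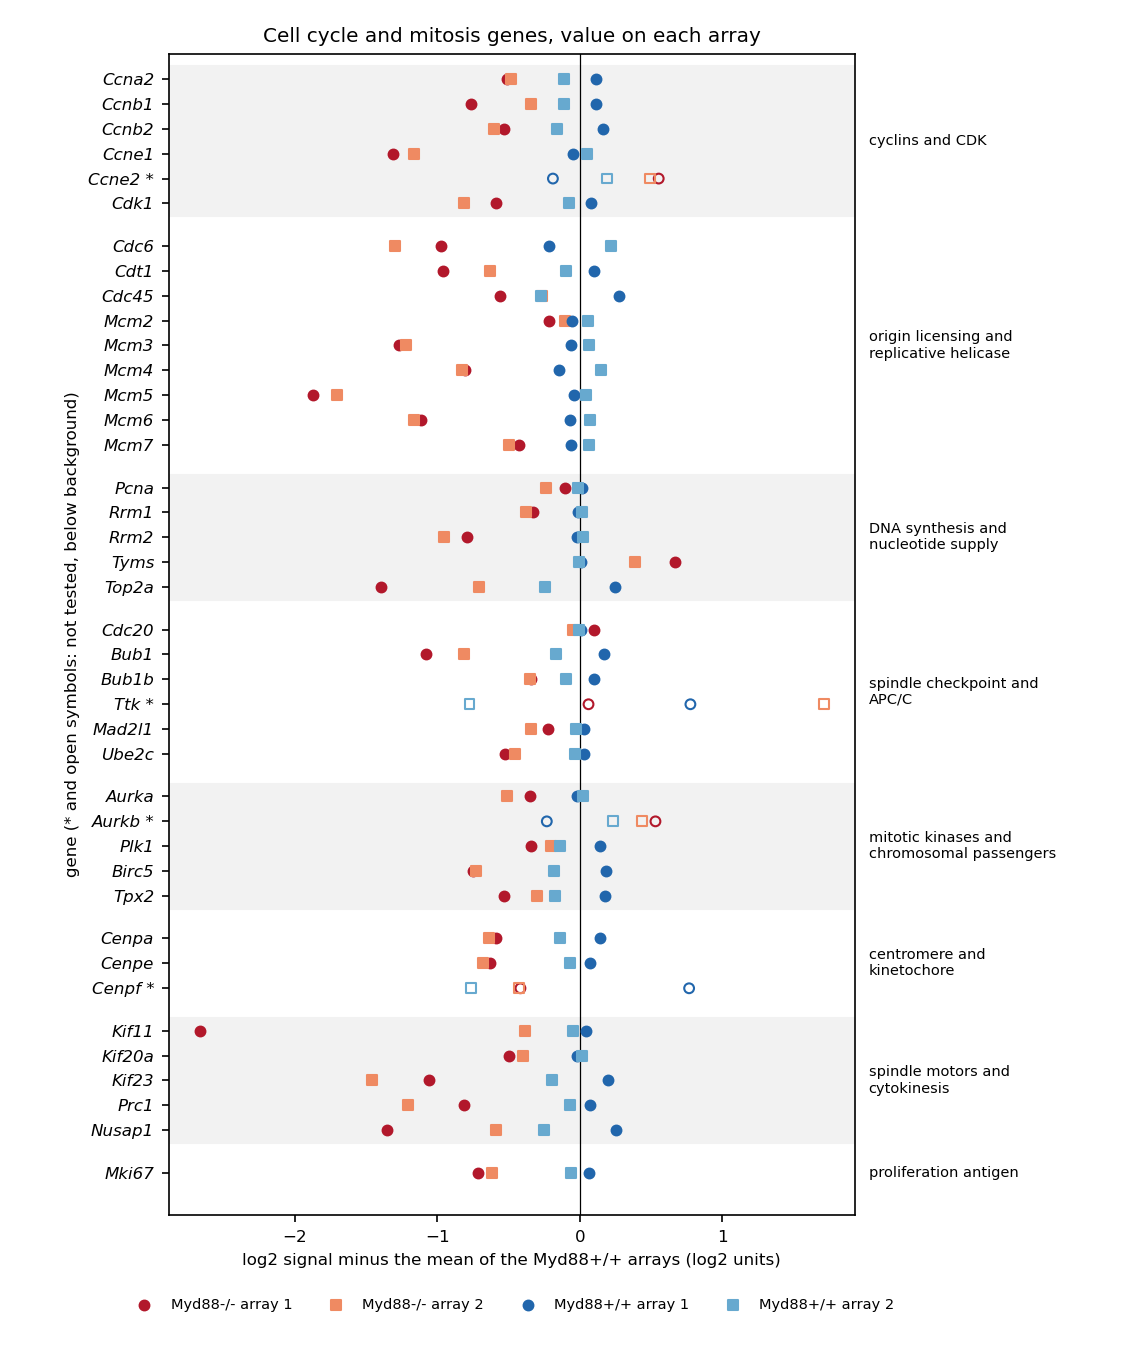
Scaled log2 signal of each of the 40 members on each array, minus the mean of the Myd88+/+ arrays, with members grouped by role and open symbols for the 4 members not tested. Most members are low in both Myd88-/- arrays and high in both Myd88+/+ arrays; Tyms shows the opposite order.

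**Figure D2:**
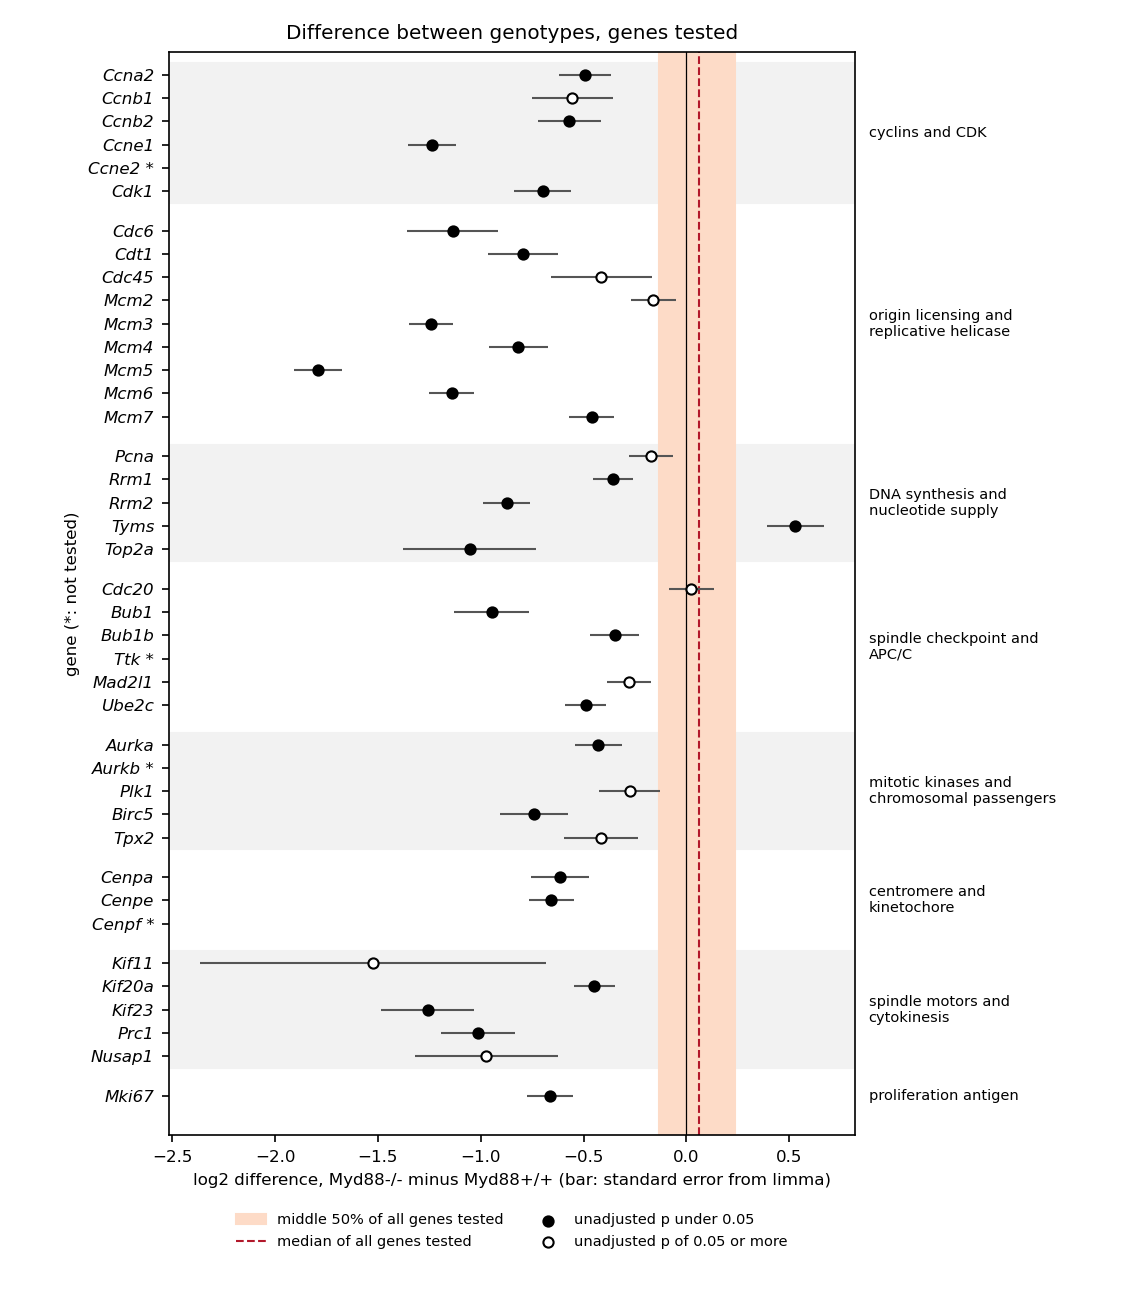
Log2 difference, Myd88-/- minus Myd88+/+, of each of the 36 tested members, with the SE from limma. Filled points have an unadjusted p under 0.05, and the band and dashed line are the middle range and median of all genes tested. The 4 members not tested are named without a point. The differences run from -1.79 for Mcm5 to 0.53 for Tyms among tested members.

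Among origin licensing and replicative helicase genes, Mcm5 had the largest difference of any tested member, although Kif11, which rested on 1 array, exceeded it with quantile normalization (-2.08 compared to -1.80) and without Myd88-/- replicate 2 (-2.67 compared to -1.88). All 9 of these genes were tested, 9 were lower, 8 had separated arrays and 7 had an unadjusted p under 0.05, with a median difference of -0.82, Cdc6 counting among them through the Myd88+/+ arrays alone. Over all genes tested, 40.4% were lower, 18.7% were separated this way and 6.83% were lower at such a p. Mcm5, a subunit of the helicase ring, read -1.85, -1.68, -0.015 and 0.065. Both Myd88-/- arrays lay far below both Myd88+/+ arrays, a difference of -1.79 or 3.46-fold lower (SE 0.12, limma adjusted p = 0.194), and 320 of all genes tested had a larger decrease. Its probe lay at chromosome 8, 77651350 to 77651410 in NCBI37/mm9, and matched the Mcm5 transcript from base 2433. Mcm3 read -0.31, -0.27, 0.89 and 1.01 (difference -1.24, SE 0.11, limma adjusted p = 0.194), and Mcm6 read 1.68, 1.63, 2.72 and 2.87 (difference -1.14, SE 0.11, limma adjusted p = 0.194). The groups were apart by more than 1 log2 unit in each of these genes. The Mcm3 probe lay at chromosome 1, 20793136 to 20793195, and the Mcm6 probe at chromosome 1, 130228178 to 130228237.

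The remaining ring subunits differed less: Mcm4 by -0.82 (0.43, 0.40, 1.09 and 1.38), Mcm7 by -0.46 (1.38, 1.31, 1.74 and 1.86) and Mcm2 by -0.16. Mcm2 read -0.27, -0.17, -0.12 and -0.0015, so that its arrays were separated by only 0.050. The difference in size between Mcm5 and Mcm2 was not tested. Cdt1, the loading factor, read 0.27, 0.60, 1.33 and 1.13, a difference of -0.80 (SE 0.17, limma adjusted p = 0.210). Cdc6, the other loading factor, was not well above background on either Myd88-/- array, and its signal was at least 1.28-fold lower there. Here and elsewhere "at least" takes, for each dim array, the faintest probe that still cleared background, or the gene's own signal if brighter, and divides the bright group's mean by it. Cdc45, which joins the ring to make the active helicase, read -3.27, -2.98, -2.44 and -2.99, with overlapping arrays.

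Of the cyclins and their kinase, all 5 tested genes had separated arrays with the lower values in Myd88-/- SGs, and 4 had an unadjusted p under 0.05. Over all genes tested, these shares were 18.7% and 6.83%. Ccne1, the cyclin that acts with Cdk2 at the start of S phase, read -1.98, -1.83, -0.72 and -0.62. Its levels were 2.36-fold lower (difference -1.24, SE 0.12, limma adjusted p = 0.194). Cdk1, the kinase that drives mitosis, read -2.03, -2.26, -1.36 and -1.52 (difference -0.70, SE 0.14, limma adjusted p = 0.204). Its partners differed less, Ccnb2 by -0.57, Ccnb1 by -0.55 and Ccna2 by -0.49, and Ccnb1 had the widest spread of these, from -1.39 to -0.97 within the Myd88-/- arrays.

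The genes of DNA synthesis and nucleotide supply were not of 1 kind. Rrm2, the regulated small subunit of ribonucleotide reductase, read 0.48, 0.31, 1.25 and 1.29, or 1.83-fold lower in Myd88-/- SGs (difference -0.87, SE 0.11, limma adjusted p = 0.194). Top2a, the topoisomerase that untangles sister chromatids, read -2.92, -2.23, -1.28 and -1.77, which is -1.05 with a wide SE of 0.32 (limma adjusted p = 0.267). Both genes had separated arrays. Rrm1, the large subunit, differed by -0.36 (0.36, 0.32, 0.68 and 0.71), and Pcna, the sliding clamp, by only -0.17 (3.15, 3.01, 3.27 and 3.24). Tyms, thymidylate synthase, went the other way at -0.11, -0.39, -0.77 and -0.79, or 1.44-fold higher (difference 0.53, SE 0.14, limma adjusted p = 0.240). Both of its Myd88-/- arrays lay above both Myd88+/+ arrays.

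In the spindle checkpoint and APC/C group, 4 of 5 tested genes had separated arrays in the lower direction, compared to 18.7% of all genes tested. Bub1, a checkpoint kinase, was spotted 10 times and averaged -4.45, -4.18, -3.20 and -3.54. Because it was not well above background on either Myd88-/- array, it is given as at least 1.55-fold lower there (fitted difference -0.95, SE 0.18, limma adjusted p = 0.204). The SD between its 10 spots was 0.65 and 0.34 on the Myd88-/- arrays and 0.19 and 0.20 on the Myd88+/+ arrays. Ube2c, the ubiquitin-conjugating enzyme of APC/C, read -0.89, -0.82, -0.33 and -0.40, a difference of -0.49. Bub1b differed by -0.35 and Mad2l1, another checkpoint protein, by -0.28. Cdc20, the activator that the checkpoint holds back, read 0.97, 0.82, 0.88 and 0.86, with overlapping arrays and a difference of 0.023 (SE 0.11, limma adjusted p = 0.937) whose sign changed with the scaling.

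Mitotic kinases and chromosomal passengers differed by -0.28 to -0.74. Birc5, survivin, the passenger that places Aurora B, read 0.76, 0.79, 1.70 and 1.33 (difference -0.74, SE 0.17, limma adjusted p = 0.213). Aurka, the kinase of spindle poles, differed by -0.43, Tpx2, its activator, by -0.42, and Plk1, polo-like kinase, by -0.28. The Plk1 arrays, at -0.28, -0.14, 0.20 and -0.077, were separated by only 0.065. At the centromere, Cenpe, a kinetochore motor, read -0.79, -0.84, -0.081 and -0.23 (difference -0.66, SE 0.11, limma adjusted p = 0.199), and Cenpa, the centromeric histone, read -1.04, -1.09, -0.31 and -0.59 (difference -0.62, SE 0.14, limma adjusted p = 0.217).

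Of the spindle motor and cytokinesis genes, Prc1, Nusap1 and Kif20a were well above background on all 4 arrays and had separated arrays in the lower direction, and Kif23 and Kif11 were tested only through the Myd88+/+ arrays. Prc1, which bundles the microtubules of the midzone, read -0.37, -0.76, 0.52 and 0.37, or 2.02-fold lower (difference -1.01, SE 0.18, limma adjusted p = 0.203). Kif23, a motor of the central spindle, was not well above background in Myd88-/- SGs and was at least 1.90-fold lower there. Kif20a, another motor of cytokinesis, differed by -0.45, and Nusap1, which binds spindle microtubules, by -0.97 (-2.90, -2.14, -1.30 and -1.80). Kif11, the motor that separates spindle poles, read -6.23, -3.95, -3.52 and -3.61, and its difference of -1.52 (SE 0.84, limma adjusted p = 0.442) rested on Myd88-/- replicate 1, since it was -0.38 without that array. Mki67, the antigen commonly stained to count dividing cells, read 1.03, 1.13, 1.81 and 1.68. Its levels were 1.59-fold lower (difference -0.67, SE 0.11, limma adjusted p = 0.199).

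Further probes were present for 11 members, 15 in number. Of the 10 that could be tested, 8 were lower in Myd88-/- SGs and 5 of these had separated arrays. Over all genes tested, 40.4% were lower and 18.7% were separated this way. A second Mki67 probe differed by -0.45, both further probes of Birc5 by -0.57 and -0.64, and a second Ube2c probe by -0.47, all separated. A second Mcm3 probe, at -1.31, overlapped the first in position and is not a separate measurement. Ccnb1 had probes at 0.043 and -0.13 with overlapping arrays and Tpx2 one at 0.059, so for these genes the probes disagreed. The further tested probes of Cdk1, at -0.35, and Mad2l1, at -1.04, were lower but also had overlapping arrays. No statement on isoforms is made from these differences.

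Other genes of the pathway were read from lists of 152 genes outside the 40, also chosen with earlier results known, of which 132 could be tested. Of these, 105 had a lower mean in Myd88-/- SGs, compared to 40.4% of all genes tested, 40 had an unadjusted p under 0.05 in the lower direction, compared to 6.83%, and 6 in the higher, compared to 9.82%. None passed after adjustment in limma. Some, among them E2f8, Exo1, Iqgap3 and Gtse1, were tested through the Myd88+/+ arrays alone, which could itself favour a lower level. With background required on all 4 arrays, 120 genes remained, 36 lower and 7 higher at an unadjusted p under 0.05. Over all 20515 genes in that fit, these numbers were 1371 and 2371. The list of other mitosis genes held 25 of the 40 among 59 tested genes, with 3 higher and a median of -0.46. Iqgap3, a scaffold protein, was at least 2.11-fold lower, Gtse1, a spindle-associated protein, at least 1.61-fold lower, and Cdca5, sororin, which holds sister chromatids together, differed by -0.95. Nuf2, a kinetochore protein, stood higher by 0.71, Cks1b, which binds CDKs, by 0.51 and Zwint, a kinetochore protein, by 0.32.

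Other DNA replication genes had a median of -0.14, with 9 of 37 tested genes lower and 1 higher at an unadjusted p under 0.05. Pole, the catalytic subunit of polymerase epsilon, read -2.72, -2.14, -0.81 and -1.18 (difference -1.44), Tk1, thymidine kinase, read -1.33, -1.66, 0.032 and -0.29 (difference -1.37), and Exo1, an exonuclease, was at least 2.29-fold lower. Mcm10, a helicase cofactor, was the 1 higher gene, at 1.39, 1.17, 0.53 and 0.63 (difference 0.70). Of the E2F, RB and DREAM regulators, 5 of 20 were lower and 1 higher, with a median of -0.17. E2f8, an atypical repressor, was at least 2.36-fold lower, E2f2 differed by -0.97 and Rbl1, the p107 pocket protein, by -0.97, while E2f7 stood higher by 0.41 and its sign turned when the mean of its probes was used. G1 cyclins and kinases (median -0.15) had 1 of 9 lower, Wee1, the inhibitory kinase of Cdk1, at -0.42, and CDK inhibitors (median -0.0034) had 1 of 7 higher, Cdkn1c, p57, at 0.59. In lists of this size, 1 gene is close to the shares over all genes tested, 6.83% lower and 9.82% higher.

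**Figure D3:**
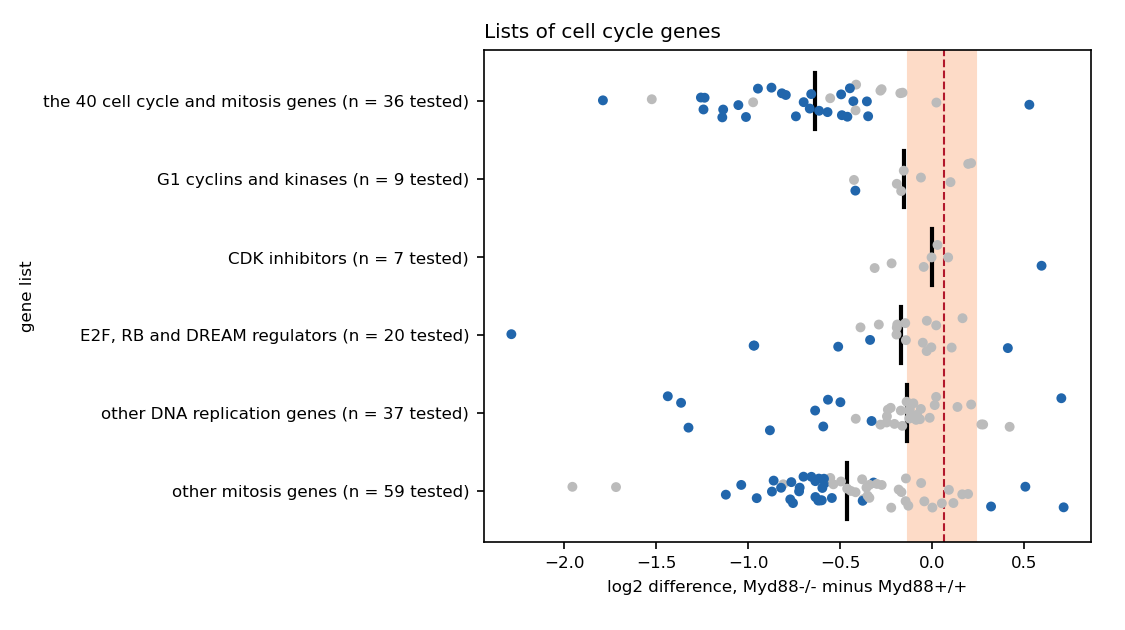
Log2 difference, Myd88-/- minus Myd88+/+, of each tested gene in the 40 members and in 5 further lists; blue points have an unadjusted p under 0.05 in limma, black bars are list medians, the dashed line is the median of all genes tested (0.062) and the band their middle range from -0.13 to 0.24. The members (median -0.64) and other mitosis genes (median -0.46) lie furthest below the band.

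Markers of several other cell types moved with the genotype, B cell, T cell, skeletal muscle and adipocyte lists downwards in Myd88-/- SGs and gland acinar lists upwards. Over all genes tested, 40.4% were lower, and 6.83% were lower at an unadjusted p under 0.05. As for the members, genes of these lists could also pass the filter through the Myd88+/+ arrays alone. Of the B cell list, 10 of 10 tested genes were lower in Myd88-/- SGs, 8 at an unadjusted p under 0.05, and the summed scaled signal was 3.53 and 3.66 compared to 23.5 and 12.7. Ms4a1, a defining marker of B cells, was not well above background on either Myd88-/- array and stood at least 28.5-fold lower there. In the T cell list, 11 of 11 were lower, 6 at an unadjusted p under 0.05, with summed signals of 13.0 and 12.5 compared to 25.4 and 18.3, although Cd3e differed by only -0.058. Of the germinal centre B cell list, Bcl6, a factor that other cells also express, was higher by 0.66. The part of lymphocytes in the lower levels of the members was not tested.

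Skeletal muscle genes were lower in 8 of 8 cases, where 40.4% of all genes tested were lower. Their summed scaled signals were 2.42 and 2.32 compared to 19.8 and 110, and Myh4, a fast myosin, read -4.55, -4.89, 2.47 and 5.06. It was not well above background on either Myd88-/- array, and the Myd88+/+ arrays differed widely from each other. Adipocyte genes were lower in 6 of 6, with sums of 117 and 185 compared to 253 and 267, and Adipoq differed by -0.76. Submandibular acinar genes were higher in 8 of 8, 4 at an unadjusted p under 0.05. Over all genes tested, 9.82% were higher at such a p, and most had a higher mean, since 40.4% were lower. The 4 without such a p were Bhlha15 (0.034), Kcnn4 (0.095), Aqp5 (0.17) and Chrm1 (0.49). The list's median was 0.39 and its largest difference 1.57, for Smgc. Its sums were 2420 and 2250 compared to 1349 and 1437, with Prol1 the largest part, so they do not measure an equal rise of all its genes. The sublingual list was higher in 3 of 4, where most genes tested were also higher, with Muc19 at -0.13. Macrophage genes did not move one way (5 of 8 lower, sums of 41.4 and 36.3 compared to 44.9 and 33.7; Csf1r differed by 0.029). The basal and myoepithelial list had 5 of 7 lower and a median of -0.032, with Krt5 at -0.27. The part of these tissues in the members' levels was not tested, and the summed signal of the 40 members was 37.1 and 36.3 compared to 55.1 and 53.8.

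**Figure D4:**
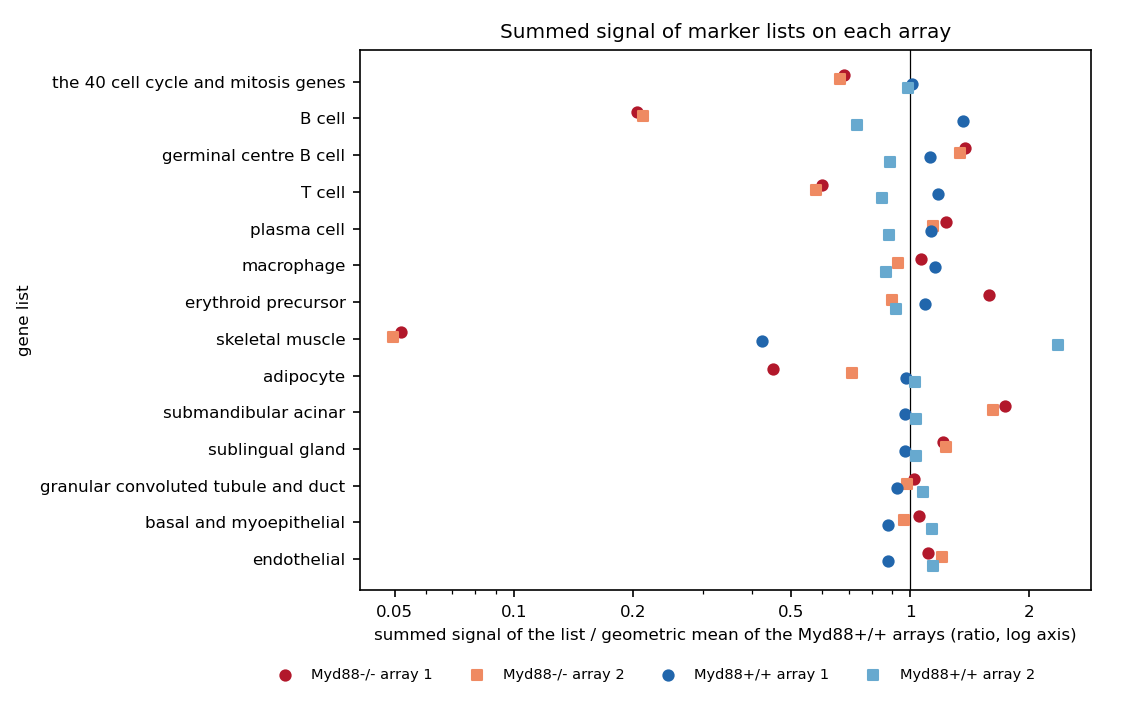
Summed scaled signal of the 40 members and of each marker list on each array, as a ratio to the geometric mean of the Myd88+/+ arrays on a log axis. The B cell, T cell and skeletal muscle lists are lower in both Myd88-/- arrays, and the submandibular acinar list is higher.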

How the data were processed

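Processed signals of 4 single-colour Agilent arrays were used, 2 per genotype. The authors deposited scanner output of Feature Extraction 10.7.3.1 (array design 028005, NCBI37/mm9), in which the deposited intensity is background-subtracted processed signal. Feature Extraction had put a surrogate value in 8.77% to 28.1% of an array's spots. The deposited background and outlier flags were taken as they stand. The 4 columns of the deposited series table were not used because their names match no single sample's labels.

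Outlier spots were dropped, log2 intensity was centred on each array's 75th percentile over non-control spots, and spots of a probe were averaged. A probe was well above background when over 0.5 of its spots were, and was tested when it was so on both arrays of at least 1 group; the brightest tested probe stood for a gene. Groups were compared with limma 3.58.1 in R 4.3.3 (lmFit, eBayes, Benjamini-Hochberg over 22312 genes, threshold 0.05, two-sided), tested on simulated data. The study's methods name an unpaired t-test, run as an alternative among 16 settings. All members were named; of each pathway list, up to 3 genes with the largest change in each direction among those with an unadjusted p under 0.05 and separated arrays were named, and of each marker list defining genes, some of which are not reported here. The members and lists were chosen with earlier results of these data known. Same-numbered arrays deviated in opposite directions (correlation -0.37 over genes), and the main fit used no block. The arrays with the most surrogate spots were Myd88-KO replicate 1 (28.1%) and Wildtype replicate 2 (25.7%). With 2 arrays per genotype, the correlation therefore cannot show whether the numbers pair arrays. Mzb1, Adgre1 and Bpifb2 were not found under those names. Marker lists not described in the report had medians of 0.23 (plasma cell), 0.35 (erythroid precursor), -0.42 (germinal centre B cell), -0.18 (duct, Klk1 at 0.052) and 0.16 (endothelial, Pecam1 at -0.025); Muc19 differed by -0.13. Promoters were from RefSeq (GRCm38.p6); probe positions are in NCBI37/mm9.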

Additional observations from a re-analysis of the deposited data

How the results depend on the processing

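Members below background in a group carry only bounds. The count of members past the adjusted threshold was 0 and became 3 with normexp background correction (Mcm3, Mcm5 and Mcm6), 1 with median scaling (Mcm5) and 8 with trended and robust moderation (Ccne1, Mcm3, Mcm4, Mcm5, Mcm6, Rrm2, Prc1 and Mki67); over all genes these settings passed 80, 402 and 482 genes. Members lower at an unadjusted p under 0.05 numbered 25, but 9 with median scaling and 15 to 20 when each array was left out, the lowest without Myd88-KO replicate 1 and 16 without Wildtype replicate 1. The 1 higher member became 0 with median scaling and with the methods' t-test, and 0 to 1 when an array was left out. Separated members in the higher direction, 3, became 5 with normexp, 0 with median scaling, 1 with cyclic loess and 1 when background was required on all arrays, and 3 to 5 when an array was left out. In the lower direction the count was 33 and stayed between 23 and 35 (33 to 35 with an array left out). Pathway genes lower, 40, became 8 with median scaling and 20 to 35 with an array left out; those higher, 6, became 0 with median scaling, 3 without a filter, 3 with the methods' t-test, 3 with the replicate block and 2 to 5 with an array left out. The median of the members, -0.56, was -0.32 with normexp, whose offset shrinks dim probes, and -0.71 to -0.47 with an array left out. Cdc20 turned to -0.0239 with the percentile taken over detected probes, -0.0290 with median scaling and -0.0291 with cyclic loess, and ran from -0.0503 without Myd88-KO replicate 1 to 0.0961 without Myd88-KO replicate 2, and E2f7 to -0.52 with the mean of its probes. The cause of these changes was not tested. Genes lower and higher at an unadjusted p under 0.05 were 1525 and 2190 among all genes tested, but 755 and 240 with median scaling and 2167 and 1622 with cyclic loess. With the replicate block 0 members passed after adjustment and 19 were lower and 1 higher. The crossed block puts Myd88-KO replicate 1 with Wildtype replicate 2 and was chosen after seeing the data. It gave 0, 28 and 1, with 38 and 5 pathway genes. The methods' t-test gave 19 lower, and 0 after Benjamini-Hochberg. A slide or scan block could not be run because all 4 arrays shared 1 slide and 1 scan.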

Other observations

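The 40 members lay on 16 chromosomes. The mouse Myd88 gene shared its chromosome with 3 of them, the nearest 35.5 Mb away by probe position.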
